A study of Mus musculus with 27 samples.

Results

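The p53 target genes described here are 9 genes of the mouse genome, Cdkn1a, Btg2, Ccng1, Mdm2, Trp53inp1, Zmat3, Phlda3, Bbc3 and Bax, out of 53801 in the count table. They were chosen by name, and their symbols were matched to Ensembl identifiers with GENCODE M21. No measured value entered the rule, but earlier results of these data were known when the genes were chosen. All 9 passed the filter on low counts, which left 18363 genes for testing, and each had between 675 and 14338 counts in every library. In mm10 the protein-coding genes lie at chr1:134075170-134079120 (Btg2, minus strand), chr1:135766119-135769136 (Phlda3, plus), chr17:29090976-29100727 (Cdkn1a, plus), chr10:117688875-117710758 (Mdm2, minus), chr11:40748552-40755311 (Ccng1, minus), chr4:11156431-11174379 (Trp53inp1, plus), chr3:32334792-32366014 (Zmat3, minus), chr7:16308393-16318205 (Bbc3, plus) and chr7:45461697-45466898 (Bax, minus). None is on the X chromosome, which Xist silences.

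The tumour suppressor p53 is a transcription factor that is held at a low level by the ubiquitin ligase MDM2 and that accumulates when DNA is damaged or ribosome assembly fails. It binds DNA as a tetramer at sites made of a pair of half-sites and raises the transcription of genes that halt the cell cycle, repair DNA, start apoptosis or, as with Mdm2, bring p53 itself down again. Mouse embryonic stem cells hold much p53 protein, have a short G1 phase, and are known for a weak G1 checkpoint after damage.

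RNA was sequenced from TX1072, a female mouse embryonic stem cell line from a BL/6J x CAST-EiJ cross in which doxycycline switches on Xist, a long RNA that coats and silences its own X chromosome. All cells carried SPEN, a repressor that binds Xist RNA, tagged with an auxin-inducible degron. The SPOC line also expressed BglG-GFP-SPOC, which holds the SPOC domain of SPEN, and the GFP line expressed BglG-GFP without it. BglG is a bacterial RNA-binding protein that brings the protein fused to it to Xist RNA carrying BglG sites. The 6 groups were SPOC Dox+Auxin (5 libraries), SPOC Dox (5), SPOC untreated (5), GFP Dox+Auxin (4), GFP Dox (4) and GFP untreated (4). Dox cells had doxycycline at 1 ug/mL for 24 h, and Dox+Auxin cells had a 12 h auxin pretreatment followed by 24 h of both compounds. No group had auxin alone, so the Dox+Auxin groups differ from the Dox groups by SPEN depletion, by the compound auxin and by the added hours together, and these cannot be told apart. Each construct was in 1 line by the labels, so the SPOC domain and any other difference between the lines cannot be told apart either. Biological replication is stated for 4 replicates in the series text, whereas each SPOC group holds 5 libraries. All 5 were treated as replicates in the tests.

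Total counts ran from 28936459 to 45489094 per library. Counts are given below as CPM, each relative to the library total, after TMM scaling of the library sizes. Xist stood at 1.03 to 1.69 CPM in SPOC untreated libraries 1, 3, 4 and 5 but at 178 CPM in SPOC untreated library 2, which goes against its label. It stood at 289.5 to 458 CPM in the 10 treated SPOC libraries, at 382 to 918 CPM in the 8 treated GFP libraries and at 5.43 to 7.82 CPM in the 4 untreated GFP libraries. Spen mRNA, which does not measure the degraded protein, was at 973 to 1242 CPM in SPOC Dox+Auxin and 634 to 1164 CPM in GFP Dox+Auxin libraries, against 326 to 369 CPM in the other SPOC and 158 to 214 CPM in the other GFP libraries. Whether reads from the SPOC domain of the construct were counted as Spen in the SPOC line was not tested. SPOC Dox+Auxin libraries 1 and 2 were closer to each other, with a chi-square of 1.76 per gene, than any other pair within a group (2.75 and above). SPOC libraries numbered 3 stood apart for the p53 targets themselves. That library had the highest level of 9 of the 9 genes in the untreated group, of 8 in the Dox group and of 5 in the Dox+Auxin group. Whether libraries that share a number also share a culture is not stated in the labels.

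Stem cell identity was checked with 8 embryonic stem cell markers, all detected, whose summed level was 5042 to 5493 CPM in SPOC Dox+Auxin, 5221 to 5534 CPM in SPOC untreated, 4788 to 5121 CPM in GFP Dox+Auxin and 5143 to 5359 CPM in GFP untreated libraries. The feeder fibroblast markers Col3a1, Postn, Lum and Dcn were at or near 0, and all 8 genes of that list together reached 24.8 to 32.1 CPM in SPOC Dox+Auxin, 31.0 to 35.8 CPM in SPOC untreated, 27.1 to 29.1 CPM in GFP Dox+Auxin and 37.5 to 38.9 CPM in GFP untreated libraries. Of the 4 feeder markers tested, 2 fell in the SPOC line (log2 fold changes −0.83 to −0.14) and 3 in the GFP line (−1.52 to −0.24) against untreated. Against Dox 2 fell in the SPOC and 4 in the GFP line, and none rose in these comparisons. Of all genes 16.6% fell in the SPOC and 18.4% in the GFP line against untreated, and 15.4% and 22.9% against Dox. Summed neural markers (5 genes) did move with the treatment, to 202 to 268 CPM in SPOC Dox+Auxin against 142 to 185 CPM in SPOC untreated libraries, and to 225 to 239 CPM in GFP Dox+Auxin against 136 to 149 CPM in GFP untreated libraries. Nes accounted for much of it, at 121 ± 9.5 CPM in SPOC Dox+Auxin and 67.6 ± 5.7 CPM in SPOC untreated cells (SD, n = 5 each), and at 127 ± 7.0 CPM in GFP Dox+Auxin and 58.0 ± 1.7 CPM in GFP untreated cells (SD, n = 4 each), while Pax6 reached at most 2.43 CPM and Neurog2 at most 0.0878 CPM in any library of these groups. The neural markers did not move as 1. Of the 4 tested, 3 rose and 1 fell in the SPOC line against untreated (log2 fold changes −0.60 to 1.29), against 16.7% and 16.6% of all genes. In the GFP line 2 rose and 1 fell (−1.07 to 2.17), against 19.9% and 18.4% of all genes. Summed trophoblast markers were at 32.9 to 35.2 CPM in SPOC Dox+Auxin, 30.8 to 37.6 CPM in SPOC untreated, 33.7 to 41.5 CPM in GFP Dox+Auxin and 22.9 to 30.2 CPM in GFP untreated libraries, mesoderm markers between 14.5 and 25.3 CPM and primitive endoderm markers between 8.04 and 12.2 CPM in these groups. The stem cell markers were at 5356 to 5791 CPM in SPOC Dox and 5453 to 5622 CPM in GFP Dox. Of the 8 genes 4 fell and 1 rose in SPOC Dox+Auxin against Dox, where 15.4% of all genes fell and 16.6% rose. In GFP Dox+Auxin against Dox 6 fell and 1 rose, where 22.9% of all genes fell and 24.7% rose. Against untreated 2 fell and 3 rose in SPOC (16.6% and 16.7% of all genes), and 4 fell and 1 rose in GFP (18.4% and 19.9%). Trophoblast markers were at 22.2 to 28.5 CPM in SPOC Dox and 19.9 to 23.1 CPM in GFP Dox libraries, below all Dox+Auxin libraries of their line. Mesoderm markers were at 20.6 to 22.8 CPM in GFP Dox+Auxin against 13.6 to 14.5 CPM in GFP Dox libraries, and at 14.5 to 23.3 CPM in SPOC Dox+Auxin against 12.1 to 19.0 CPM in SPOC Dox libraries, which overlapped. Neural markers were at 138 to 176 CPM in SPOC Dox and 152 to 175 CPM in GFP Dox, feeder markers at 33.01 to 38.9 CPM in SPOC Dox and 37.7 to 41.1 CPM in GFP Dox, and primitive endoderm markers at 9.08 to 13.5 CPM in SPOC Dox and 9.22 to 11.1 CPM in GFP Dox libraries. The part of these shifts in the changes of p53 targets described below was not tested, and in bulk RNA fewer cells of a type and less RNA per cell cannot be told apart.

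Sites like those bound by p53 lay close to the start of 4 of the 9 genes, and these are shown because they hold the kind of sequence p53 is known to bind. RefSeq promoter windows (GRCm38.p6, from 250 bases before to 50 bases after a transcript start) were at hand for 7 of the 9 genes, as 10 windows, with none for Trp53inp1 and Zmat3. The 10-base p53 half-site consensus was found in a window of Bax, Mdm2, Ccng1 and Cdkn1a, and in 8.36% of all 32817 mouse windows of the same length. The consensus is its own reverse complement, so both strands were covered. A full site of 20 bases, 2 half-sites side by side with at most 1 letter off, was found in Cdkn1a and Ccng1 and in 0.0884% of all windows (29 of them). That allowance was chosen with known p53 sites in view, so the count is a description. Below, each sequence reads along the strand of its gene with the site in capitals:
Cdkn1a, full site 51 bases before its upstream start, chr17:29090908-29090967, plus strand: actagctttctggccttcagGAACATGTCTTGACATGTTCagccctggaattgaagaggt
Ccng1, full site 195 bases before the start, chr11:40755442-40755501, minus strand: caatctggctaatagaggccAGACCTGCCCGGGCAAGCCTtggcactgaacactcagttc
Mdm2, half-site 186 bases before the start, chr10:117710915-117710964, minus strand: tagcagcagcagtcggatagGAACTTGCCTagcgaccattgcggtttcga
Bax, half-site 201 bases before the start, chr7:45467070-45467119, minus strand: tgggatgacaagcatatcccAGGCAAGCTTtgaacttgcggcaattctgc

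The Cdkn1a window with the site belongs to the upstream of 2 annotated starts, which lie 2790 bases apart, and the window of the downstream start had no match. Windows of Btg2 (chr1:134079106-134079405, minus strand), Phlda3 (chr1:135765835-135766134, plus strand) and Bbc3 (3 windows on chromosome 7) held no half-site either, which says only that these letters are not in these windows. Of the 2 genes with a full site, Ccng1 was higher and Cdkn1a lower with Dox+Auxin than untreated in both lines. Of those with a half-site alone, Mdm2 rose in both lines and Bax in the GFP line. Btg2, Phlda3 and Bbc3, without a match, rose in the GFP line, and of these Phlda3 alone rose in the SPOC line. A link between the sites and the changes was not tested.

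Levels between genes were compared per kilobase of exon. In GFP untreated cells Bax was the highest at 149.6 ± 4.4 CPM per kb, followed by Phlda3 at 86.0 ± 4.5, Ccng1 at 80.2 ± 4.5 and Cdkn1a at 71.7 ± 3.6 CPM per kb (SD, n = 4). The libraries of Phlda3 and Ccng1, and those of Ccng1 and Cdkn1a, overlapped in range. Trp53inp1 at 45.9 ± 1.8 and Mdm2 at 43.1 ± 1.3 CPM per kb also overlapped. Btg2 at 18.1 ± 0.56, Zmat3 at 16.5 ± 0.72 and Bbc3 at 15.6 ± 0.89 CPM per kb were the lowest, and of these Zmat3 and Bbc3 overlapped. The same order of the 9 means was found in SPOC Dox+Auxin cells, with Bax at 156.9 ± 5.8, Phlda3 at 104 ± 3.7, Ccng1 at 97.0 ± 8.6 and Cdkn1a at 55.7 ± 2.1 CPM per kb (SD, n = 5).

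**Figure D1:**
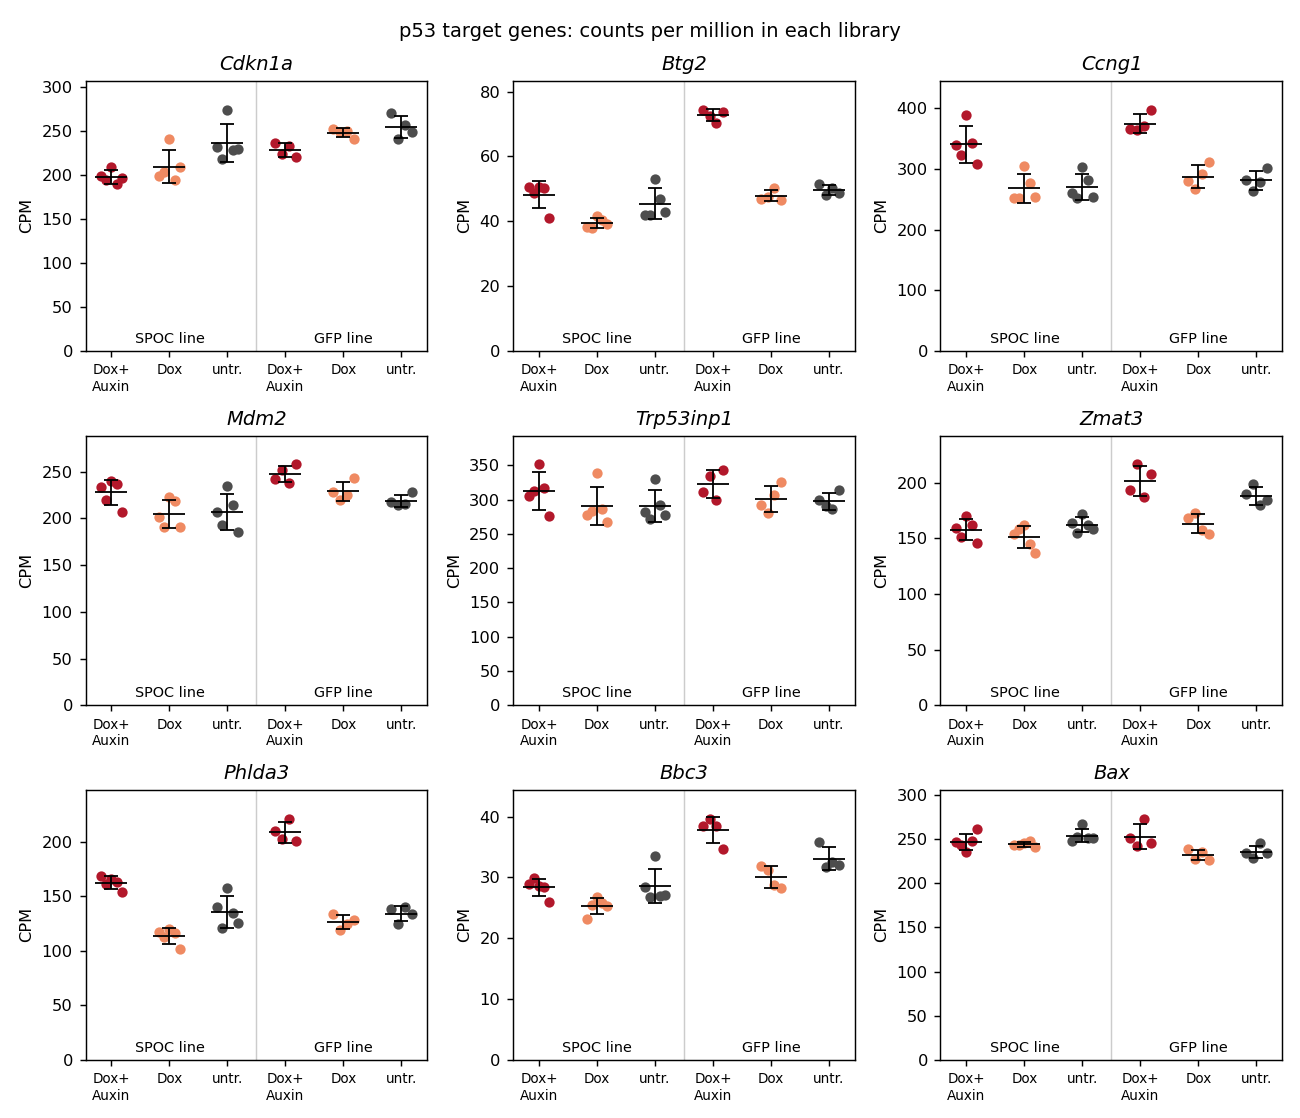
CPM (vertical axis, from 0, a different scale in each panel) of the 9 p53 target genes in each of 27 libraries, with the SPOC line left and the GFP line right in each panel and Dox+Auxin, Dox and untreated from left to right. Points are libraries, and the bars are the mean ± SD of 5 (SPOC) or 4 (GFP) libraries. The 4 GFP Dox+Auxin libraries of Btg2 (70.3 to 74.4 CPM) and of Phlda3 (201 to 221 CPM) lie above all other libraries of these genes.

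The first comparison asks what doxycycline with SPEN depletion did to p53 targets relative to untreated cells of the same line. In the GFP line 6 of the 9 genes rose (Phlda3, Btg2, Ccng1, Bbc3, Mdm2 and Bax), Cdkn1a fell, and Trp53inp1 and Zmat3 did not pass the test. Among all genes tested 19.9% rose and 18.4% fell in this comparison (edgeR adjusted p under 0.05). The median log2 fold change was 0.18 over the 9 genes and −0.003 over all genes. In the SPOC line 3 rose (Ccng1, Phlda3 and Mdm2) and Cdkn1a fell, against 16.7% and 16.6% of all genes, with a median log2 fold change of 0.09 over the 9 genes and −0.01 over all genes. Under upper quartile scaling 39.9% of the SPOC calls were rises, against 50.04% under TMM. Libraries of the groups did not overlap for 4 rising genes and 1 falling gene in the GFP line (18.7% and 17.1% of all genes) and for 1 rising and 1 falling gene in the SPOC line (9.9% and 9.17%). Same-numbered GFP Dox+Auxin and untreated libraries deviated together in all 4 pairs (r = 0.103 to 0.214), and with the number as a block Trp53inp1 (0.11, adjusted p = 0.00437) and Zmat3 (0.09, adjusted p = 0.0203) also passed the test in that line. The same pairs in the SPOC line had r = 0.087 to 0.239, and there Trp53inp1 was called higher under 1 of 37 alternatives (adjusted p = 0.00453).

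Dox+Auxin was next set against Dox, where doxycycline is common to both groups. In the GFP line 6 genes rose (Phlda3, Btg2, Ccng1, Bbc3, Zmat3 and Bax) and none fell, against 24.7% and 22.9% of all genes, and the median log2 fold change was 0.30 over the 9 genes. In the SPOC line 5 rose (Phlda3, Ccng1, Btg2, Bbc3 and Mdm2) and none fell, against 16.6% and 15.4% of all genes, with a median of 0.15. By DESeq2 none fell either, and at an unadjusted p under 0.05 1 gene, Cdkn1a, was lower in the GFP and 0 in the SPOC line. Cdkn1a, which did not pass, stood at −0.12 in the GFP line (SE 0.06) and −0.08 in the SPOC line (SE 0.05). In the GFP line it was called lower under 6 of 37 alternatives (adjusted p = 0.00116 to 0.0445), namely upper quartile scaling, only the groups compared, a replicate block, without SPOC Dox replicate 3, without SPOC untreated replicate 3 and without all SPOC libraries numbered 3. In the SPOC line it was called lower with a replicate block (adjusted p = 0.0179). Libraries did not overlap for 6 rising genes and for Cdkn1a as a lower one in the GFP line (22.3% and 19.9% of all genes), and for 2 rising and no lower gene in the SPOC line (10.1% and 8.51%). The 2 comparisons share the Dox+Auxin libraries of their line and are therefore not independent of each other.

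**Figure D2:**
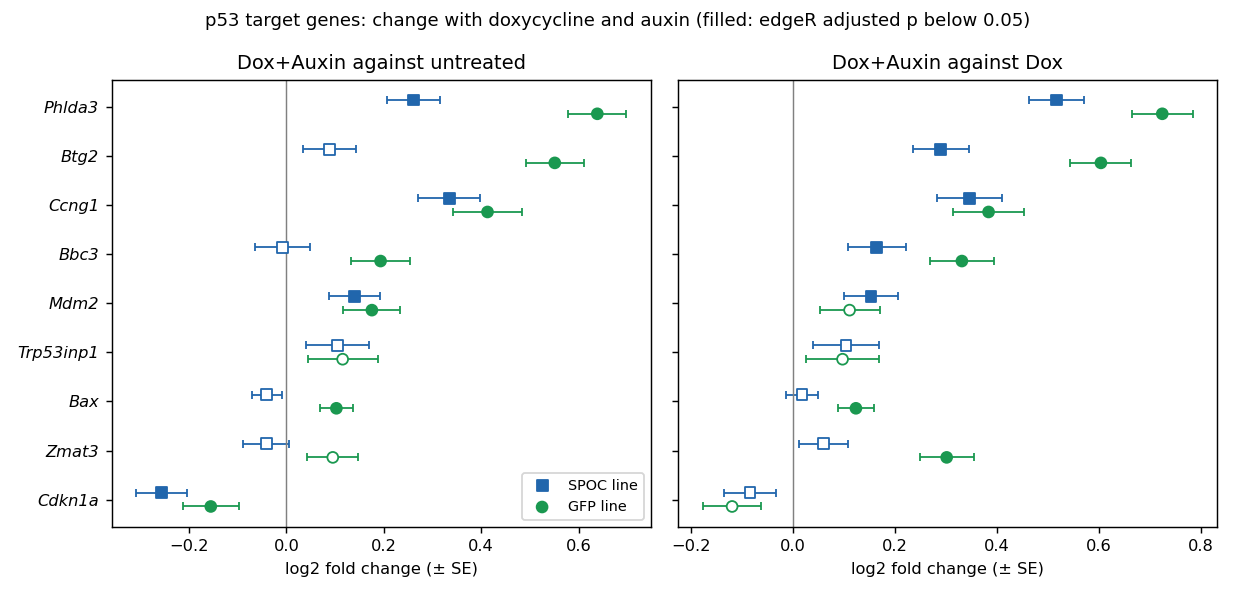
Log2 fold changes (horizontal axis) of the 9 p53 target genes for Dox+Auxin against untreated (left) and against Dox (right), as blue squares for the SPOC line and green circles for the GFP line, with bars of 1 SE. Filled symbols passed an edgeR adjusted p of 0.05. In the left panel Phlda3 lies at 0.26 in the SPOC line and 0.64 in the GFP line, and Cdkn1a is the gene below 0 in both lines by a filled symbol.

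Of the genes that restrain the cell cycle, Cdkn1a encodes p21, an inhibitor of cyclin-dependent kinases and the classic p53 target for arrest. Its levels were 199.6, 194, 209.5, 189 and 197 CPM in SPOC Dox+Auxin, against 232, 218, 274, 229 and 229.5 CPM in SPOC untreated cells. All 5 Dox+Auxin libraries were below all 5 untreated ones, and the log2 fold change was −0.26 (SE 0.05, edgeR adjusted p = 0.000289). In the GFP line Cdkn1a had 237, 225, 233 and 220.4 CPM with Dox+Auxin, against 271, 241, 257 and 249.7 CPM untreated. These groups did not overlap either (log2 fold change −0.16, SE 0.06, adjusted p = 0.0325), but the call was lost without GFP Dox+Auxin replicate 2 or 4 or without GFP untreated replicate 1 or 3 (adjusted p = 0.0705 to 0.117). A reference transcript on the opposite strand, AC167363.2, overlaps 1046 bases of Cdkn1a, and whether reads were counted by strand was not given in the sources used here.

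Btg2, an antiproliferative protein that recruits mRNA deadenylation, stood above all other libraries in GFP Dox+Auxin cells, as did Phlda3. It had 74.4, 72.4, 70.3 and 73.8 CPM in GFP Dox+Auxin, 46.9, 47.5, 50.3 and 46.5 CPM in GFP Dox and 51.5, 48.1, 50.2 and 48.8 CPM in GFP untreated cells. Dox+Auxin was above both other groups in all libraries, with log2 fold changes of 0.60 against Dox (SE 0.06, adjusted p = 1.03e-09) and 0.55 against untreated (SE 0.06, adjusted p = 1.13e-08). SPOC cells had 50.5, 48.8, 50.5, 50.3 and 41.1 CPM with Dox+Auxin, 38.2, 37.9, 41.7, 40.5 and 39.0 CPM with Dox and 41.8, 42.0, 53.2, 46.9 and 43.0 CPM untreated. There Btg2 rose by 0.29 against Dox (SE 0.05, adjusted p = 0.000123), with Dox+Auxin library 5 within the Dox range, and stood at 0.09 against untreated (SE 0.05, adjusted p = 0.221). Against untreated the SPOC change passed the test at 0.16 without SPOC untreated replicate 3 (adjusted p = 0.0158) and at 0.14 without SPOC Dox+Auxin replicate 5 (adjusted p = 0.0281).

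Ccng1 encodes cyclin G1, which acts with protein phosphatase 2A on MDM2, and it rose in both lines. Its SPOC levels were 339, 324, 389, 344 and 309 CPM with Dox+Auxin, against 261, 252, 303, 282 and 254 CPM untreated. No library overlapped, and the log2 fold change was 0.33 (SE 0.06, adjusted p = 0.000185). GFP levels were 366, 364, 372 and 398 CPM with Dox+Auxin, against 282, 264, 278 and 302 CPM untreated, again with no overlap (0.41, SE 0.07, adjusted p = 4.26e-05). The difference of these changes between the lines was −0.08 (SE 0.09, adjusted p = 0.726), which is within its error.

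Among the regulators of p53 itself, Mdm2, its ubiquitin ligase, showed small changes. It had 234, 220.2, 239.9, 237 and 207 CPM in SPOC Dox+Auxin, against 207, 192, 235, 214 and 186 CPM in SPOC untreated cells, groups that overlapped (log2 fold change 0.14, SE 0.05, adjusted p = 0.0422). It had 242, 251, 238 and 258 CPM in GFP Dox+Auxin, against 217, 215, 216 and 228 CPM in GFP untreated cells, with no overlap (0.18, SE 0.06, adjusted p = 0.0187). Both calls sat close to the threshold. That in the SPOC line was lost without SPOC untreated replicate 2, the library with high Xist (0.12, adjusted p = 0.112), and likewise without SPOC untreated replicate 1 or 5 or SPOC Dox+Auxin replicate 1, 3 or 4 (adjusted p = 0.0621 to 0.13). That in the GFP line was lost without GFP Dox+Auxin replicate 4 (0.16, adjusted p = 0.0564). Against Dox, Mdm2 rose by 0.15 in the SPOC line (SE 0.05, adjusted p = 0.0263), a call lost without SPOC Dox replicate 1, 2 or 5 or SPOC Dox+Auxin replicate 1, 3 or 4 (adjusted p = 0.0508 to 0.0789), and stood at 0.11 in the GFP line (adjusted p = 0.123).

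Trp53inp1, a nuclear protein that promotes p53 activity and autophagy, did not pass the test in any of the 10 comparisons made without a block. Its levels ran from 276 to 351 CPM in SPOC Dox+Auxin (median 313), from 271 to 329.6 CPM in SPOC untreated (median 281), from 299.8 to 343 CPM in GFP Dox+Auxin (median 323) and from 286 to 313 CPM in GFP untreated cells (median 295). Its log2 fold changes against untreated were 0.11 in the SPOC line (SE 0.06, adjusted p = 0.223) and 0.12 in the GFP line (SE 0.07, adjusted p = 0.218). Against Dox in the SPOC line it passed without SPOC Dox replicate 3 (0.17, adjusted p = 0.0374) and with a replicate block (0.11, adjusted p = 0.00452). Zmat3, an RNA-binding zinc finger protein that controls splicing and mRNA stability downstream of p53, had 194, 217, 187 and 208 CPM in GFP Dox+Auxin, 169, 173, 157 and 154 CPM in GFP Dox and 189.7, 199, 180.0 and 185 CPM in GFP untreated cells. It was lower in the Dox group than in either of the others, with no overlap, at 0.30 for Dox+Auxin against Dox (SE 0.05, adjusted p = 2.31e-05) and −0.21 for Dox against untreated (SE 0.05, adjusted p = 0.00464). In the SPOC line Zmat3 ran from 146 to 171 CPM with Dox+Auxin, from 137 to 162 CPM with Dox and from 155 to 172 CPM untreated, all overlapping, and passed none of the tests within that line without a block.

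Of the genes that promote cell death, Phlda3, a pleckstrin homology domain protein that competes with AKT for membrane lipids, showed the largest rise in both lines against Dox. It had 169, 161, 166, 163 and 154 CPM in SPOC Dox+Auxin, 117, 112, 120.3, 116 and 102 CPM in SPOC Dox and 140.1, 121, 158, 134 and 126 CPM in SPOC untreated cells. All Dox+Auxin libraries were above all Dox libraries (0.52, SE 0.05, adjusted p = 2.76e-08), whereas 1 of them was below the highest untreated library, replicate 3 (0.26, SE 0.05, adjusted p = 0.000404). GFP cells had 210.3, 203, 221 and 201 CPM with Dox+Auxin, 134, 119, 125 and 128 CPM with Dox and 138, 124, 140.5 and 133 CPM untreated. The Dox+Auxin libraries stood apart from both, at 0.72 against Dox (SE 0.06, adjusted p = 1.08e-10) and 0.64 against untreated (SE 0.06, adjusted p = 2.44e-09).

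Bbc3 encodes PUMA, a BH3-only protein that opposes BCL2 and its relatives, and had the lowest counts of the 9 genes. It had 28.9, 29.9, 28.5, 28.5 and 25.9 CPM in SPOC Dox+Auxin, 23.1, 25.4, 26.8, 25.8 and 25.4 CPM in SPOC Dox and 28.4, 26.7, 33.4, 26.96 and 27.1 CPM in SPOC untreated cells. The SPOC rise against Dox was 0.16 (SE 0.06, adjusted p = 0.0263), with an overlap at Dox+Auxin library 5, and it was lost when the similar SPOC Dox+Auxin libraries 1 and 2 were counted as 1 (0.15, adjusted p = 0.0559) and without SPOC Dox replicate 1 or SPOC Dox+Auxin replicate 1 or 2 (adjusted p = 0.053 to 0.0796). GFP cells had 38.5, 39.6, 38.5 and 34.6 CPM with Dox+Auxin, 31.9, 31.2, 28.7 and 28.3 CPM with Dox and 35.9, 31.8, 32.6 and 32.0 CPM untreated. It rose there by 0.33 against Dox with no overlap (SE 0.06, adjusted p = 4.87e-05) and by 0.19 against untreated with 1 library of each group overlapping (SE 0.06, adjusted p = 0.0126).

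Bax, the pore-forming effector of mitochondrial apoptosis, moved least among the genes called. It had 251, 243, 273 and 246 CPM in GFP Dox+Auxin, 239, 227, 236 and 227 CPM in GFP Dox and 235, 229, 246 and 234 CPM in GFP untreated cells. It rose in the GFP line by 0.12 against Dox (SE 0.03, adjusted p = 0.00361) and by 0.10 against untreated (SE 0.03, adjusted p = 0.0184). The second call was lost without GFP Dox+Auxin replicate 3, the highest library (0.06, adjusted p = 0.127), without GFP untreated replicate 2 (0.09, adjusted p = 0.0623) and when only the 2 groups were fitted (0.10, adjusted p = 0.0581). SPOC libraries held 236 to 261 CPM with Dox+Auxin, 241 to 249 CPM with Dox and 248 to 268 CPM untreated, and no difference within that line passed the test. Gm45808 overlaps Bax on the same strand but was given 31 counts in all libraries together, against 231112 for Bax.

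Doxycycline alone, which switches on Xist while SPEN is present, raised none of the 9 genes in either line by edgeR or by DESeq2, nor did any rise at an unadjusted p under 0.05 (0 in each line). In the SPOC line 4 fell against untreated cells, where 6.16% of all genes rose and 7.33% fell. These were Phlda3 at −0.26 (SE 0.05, adjusted p = 0.00157), Btg2 at −0.20 (SE 0.06, adjusted p = 0.0127), Cdkn1a at −0.17 (SE 0.05, adjusted p = 0.0234) and Bbc3 at −0.17 (SE 0.06, adjusted p = 0.0427). Libraries did not overlap for Phlda3 and Btg2 among these, and 5% of all genes were lower without overlap and 4.6% higher. Without SPOC untreated replicate 3, which held the highest level of each of them, 1 of the 9 genes was called instead of 4, since Btg2 (adjusted p = 0.0694), Cdkn1a (0.0906) and Bbc3 (0.186) missed the threshold. The Cdkn1a call was also lost without SPOC Dox replicate 1, 2 or 4 (adjusted p = 0.0551 to 0.0754) and the Bbc3 call without SPOC Dox replicate 1, 2, 4 or 5 or SPOC untreated replicate 1 (adjusted p = 0.0604 to 0.125). With the libraries numbered 3 left out of all SPOC groups, 3 were called, and with SPOC untreated library 2 and SPOC Dox+Auxin library 2 left out, 4 were. In the GFP line Zmat3 was the gene that fell, against 10.1% of all genes that rose and 10.8% that fell. It was also the gene without overlap there, where 13.4% of all genes were higher and 13.5% lower without overlap.

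The lines were then set against each other, where the SPOC domain and any other difference between the lines cannot be told apart. With Dox+Auxin 5 of the 9 genes were lower in the SPOC line and none was higher (0 also by DESeq2 and at an unadjusted p under 0.05), where 11.2% of all genes were higher and 13.5% lower. Btg2 at 48.2 ± 4.1 CPM in SPOC and 72.7 ± 1.8 CPM in GFP cells differed most (log2 −0.59, SE 0.06, adjusted p = 1.37e-08). It was followed by Bbc3 (−0.41, SE 0.06, adjusted p = 7.21e-06), Phlda3 (−0.36, SE 0.06, adjusted p = 3.65e-05), Zmat3 (−0.35, SE 0.05, adjusted p = 9.06e-06) and Cdkn1a (−0.21, SE 0.05, adjusted p = 0.00559), and for all 5 the libraries of the lines did not overlap. Of all genes 9.76% were lower and 7.78% higher in the SPOC line without overlap. The other 4 genes had differences from −0.14 to −0.03, and of these Ccng1 passed when single libraries were left out, without SPOC Dox+Auxin replicate 3 (−0.19, adjusted p = 0.0319).

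Part of this difference, that of Zmat3 and Bbc3, was called before treatment as well. SPOC Dox and GFP Dox cells were not tested against each other. In untreated cells Zmat3 was lower in the SPOC line at 162 ± 6.6 CPM than in the GFP line at 188 ± 8.2 CPM (SD, n = 5 and 4; log2 −0.21, SE 0.05, adjusted p = 0.0068). Bbc3 was likewise lower at −0.21 (SE 0.06, adjusted p = 0.0182) and Bax higher at 0.11 (SE 0.03, adjusted p = 0.0289), where 5.79% of all genes were higher and 5.77% lower in the SPOC line. Zmat3 and Bax did not overlap between the lines, and 6.48% of all genes were higher and 6.44% lower without overlap. By library size alone 38.8% of the calls were higher in the SPOC line, and without a filter 32.4%, against 50.1% with TMM and the filter. Without SPOC untreated replicate 3, 4 of the 9 genes were called and all were lower in the SPOC line, with Btg2 (−0.20, adjusted p = 0.0131) and Cdkn1a (−0.17, adjusted p = 0.0158) joining and Bax at 0.09 (adjusted p = 0.0793). Without GFP untreated replicate 1, where Bbc3 stood at −0.17 (adjusted p = 0.0932) and Bax at 0.11 (adjusted p = 0.0746), 1 of the 9 was called. The Bbc3 call was lost as well without SPOC untreated replicate 4 (adjusted p = 0.0518), and the Bax call without GFP untreated replicate 2 or 4 (adjusted p = 0.12 and 0.0705).

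The test of the difference itself, as the line by treatment interaction, was called for 2 genes in each form, all smaller in the SPOC line. For Dox+Auxin against untreated these were Btg2 (SPOC minus GFP −0.46, SE 0.08, adjusted p = 0.00241) and Phlda3 (−0.38, SE 0.08, adjusted p = 0.0106), where 1.2% of all genes were positive and 1.2% negative. For Dox+Auxin against Dox they were Btg2 (−0.31, SE 0.08, adjusted p = 0.0141) and Zmat3 (−0.24, SE 0.07, adjusted p = 0.033), with 3.49% and 4.65% of all genes. Phlda3 stood at −0.21 in the second form (SE 0.08, adjusted p = 0.116), and passed there without SPOC untreated replicate 3 (adjusted p = 0.0462) and when only the groups compared were fitted. The Btg2 and Phlda3 calls against untreated held without SPOC untreated replicate 2 (−0.49 and −0.42), whereas the Zmat3 call was lost without GFP Dox+Auxin replicate 2 or 4, GFP Dox replicate 3 or 4, SPOC Dox+Auxin replicate 2 or 5 or SPOC Dox replicate 1, 2 or 3 (adjusted p = 0.0504 to 0.0873). Against untreated, the estimate was below 0 for 9 of the 9 genes, from −0.46 for Btg2 to −0.01 for Trp53inp1, and the remaining 7 did not pass the test. Its median was −0.14 over the 9 genes and −0.008 over all genes. Against Dox it was above 0 for 3 of the 9, Mdm2 (0.04), Cdkn1a (0.04) and Trp53inp1 (0.007), with medians of −0.11 and −0.009. The 9 genes varied together between libraries, so their signs are not independent of each other. With the replicate number as a block, Bax (−0.14, adjusted p = 0.0167) and Zmat3 (−0.14, adjusted p = 0.0458) passed against untreated as well. Phlda3 (−0.21, adjusted p = 0.00505) passed against Dox with that block. A library correlated best with its own number in 26 of 30 SPOC and 14 of 24 GFP cases. Between same-numbered Dox and Dox+Auxin libraries r was −0.116 to 0.025 in the GFP line and −0.045 to 0.462 in the SPOC line.

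**Figure D3:**
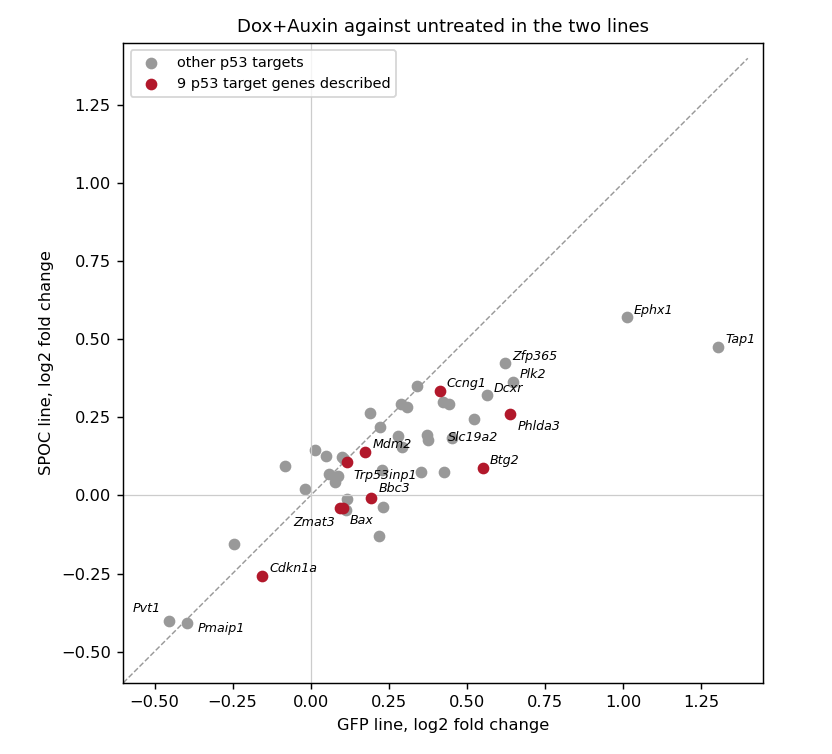
Log2 fold change with Dox+Auxin relative to untreated cells, SPOC line (vertical axis) and GFP line (horizontal axis), for the 9 p53 target genes (red) and 37 other p53 targets (grey), 1 point per gene, with the line of equal change dashed. The 9 red points lie below the dashed line, Btg2 (0.09 and 0.55) and Phlda3 (0.26 and 0.64) the farthest, and Tap1 (0.48 and 1.31) is the grey point farthest below it.

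Libraries were also placed by the mean of the 9 genes, each standardised over the 27 libraries on the log2 CPM scale. The mean was −0.48 to 0.44 SD units in SPOC Dox+Auxin, −1.24 to −0.04 in SPOC Dox, −0.76 to 0.86 in SPOC untreated, 1.22 to 1.33 in GFP Dox+Auxin, −0.34 to −0.01 in GFP Dox and −0.15 to 0.28 in GFP untreated libraries. GFP Dox+Auxin libraries thus stood above all others and lay close together, whereas SPOC libraries of different treatments overlapped. Replicate 3 was the highest SPOC library under each treatment, and replicate 5 the lowest under Dox+Auxin and Dox. Replicate 5 had the lowest level of 7 of the 9 genes in SPOC Dox+Auxin and of 5 in SPOC Dox. Between pairs of the 9 genes the correlation over the 27 libraries had a median of 0.54 and ran from −0.17 to 0.89 in 36 pairs, and after removal of the group means it had a median of 0.47 and was above 0 in 32 pairs. These are descriptions, since all genes share the libraries and their depth.

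**Figure D4:**
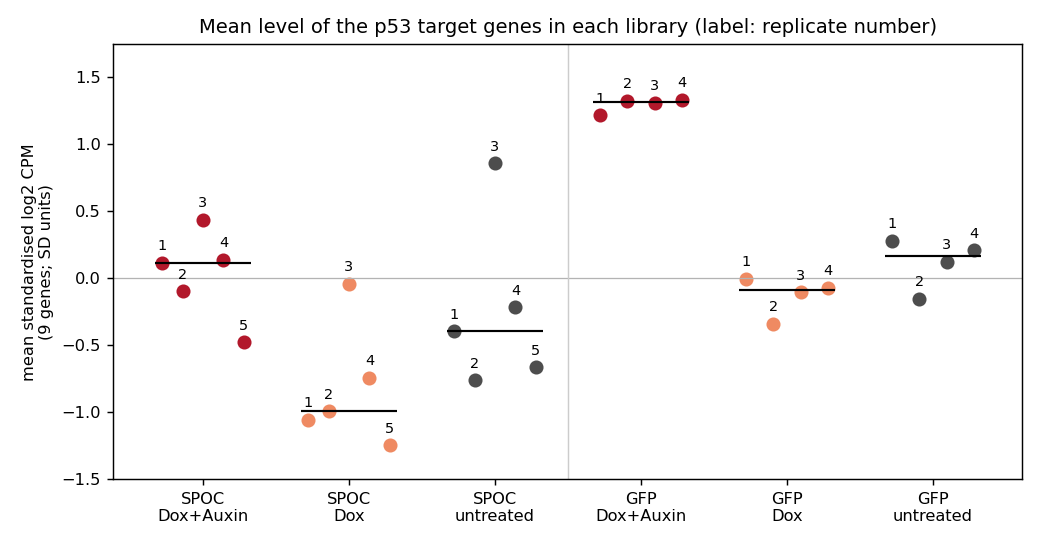
Mean of the standardised log2 CPM of the 9 p53 target genes (vertical axis, SD units) in each of the 27 libraries, by group, with the SPOC line left and the GFP line right. Points carry their replicate number, and the bar is the group's median. GFP Dox+Auxin libraries lie at 1.22 to 1.33, and SPOC untreated replicate 3 at 0.86 lies above the other SPOC libraries.

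The 5 genes whose log2 CPM followed this mean most closely, out of 12572 named genes above a low level (mean CPM of 1 or more), were Wdr35 (Pearson r = 0.95), Cgref1 (0.94), Ltb4r2 (0.94), March5 (0.94) and Plk2 (0.93), over 27 libraries that all share the 6 groups. Plk2 is itself among the other p53 targets below.

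Other genes known as p53 targets, 37 in number and all tested, were listed apart from the 9. With Dox+Auxin against untreated 16 rose and 2 fell in the SPOC line and 23 rose and 3 fell in the GFP line, with median log2 fold changes of 0.14 and 0.23. Against Dox 17 rose and 2 fell in the SPOC line and 22 rose and 3 fell in the GFP line, with medians of 0.15 and 0.20. Of all genes 16.7% rose and 16.6% fell in the SPOC line and 19.9% rose and 18.4% fell in the GFP line against untreated, and against Dox 16.6% rose and 15.4% fell in the SPOC line and 24.7% rose and 22.9% fell in the GFP line. Ephx1, an epoxide hydrolase, had 26.3 ± 3.8 CPM in SPOC Dox+Auxin and 17.7 ± 2.2 CPM in SPOC untreated cells (SD, n = 5 each; log2 0.57, adjusted p = 5.9e-06), and 41.8 ± 1.7 CPM in GFP Dox+Auxin and 20.8 ± 1.5 CPM in GFP untreated cells (SD, n = 4 each; 1.01, adjusted p = 8.6e-10). Tap1, a peptide transporter for antigen presentation, rose by 0.48 in the SPOC and 1.31 in the GFP line, and the difference between the lines passed the test (−0.83, adjusted p = 0.0089). The kinase gene Plk2 rose by 0.36 in the SPOC and 0.65 in the GFP line, and Zfp365 by 0.42 and 0.62.

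Against Dox, Gadd45a, a growth arrest and DNA repair gene, rose by 0.47 in the SPOC line and 0.96 in the GFP line. It had fallen with Dox alone by 0.39 in the SPOC and 0.60 in the GFP line, so that against untreated it stood at 0.08 in the SPOC line (adjusted p = 0.31) and rose by 0.35 in the GFP line. Eda2r, a death receptor gene on the X chromosome, was another such gene, falling by 0.38 in SPOC Dox and 0.50 in GFP Dox cells against untreated and rising by 0.25 and 0.72 in Dox+Auxin against Dox. The part of X chromosome silencing by Xist in the changes of Eda2r was not tested. Not all targets rose. Pvt1, a long non-coding RNA gene, was lower in Dox+Auxin than in untreated cells at −0.40 in the SPOC and −0.46 in the GFP line, and so was Pmaip1, which encodes the BH3-only protein NOXA, at −0.41 and −0.40. Between the lines with Dox+Auxin, 20 of the 37 were lower and 1 higher in the SPOC line, with a median of −0.19, where 13.5% of all genes were lower and 11.2% higher.

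The mRNA of p53 itself, Trp53, did not pass the test in any comparison. It was at 404 ± 15.1 CPM in SPOC Dox+Auxin, 395 ± 8.2 CPM in SPOC Dox and 387 ± 7.5 CPM in SPOC untreated cells (SD, n = 5 each), and at 398 ± 10.3 CPM in GFP Dox+Auxin, 404 ± 9.5 CPM in GFP Dox and 385 ± 9.2 CPM in GFP untreated cells (SD, n = 4 each). The RNA says nothing of the p53 protein, which is controlled by its degradation. Of 19 genes that regulate p53 or are related to it 18 were tested, all but Trp63. Against untreated 3 rose and 3 fell in the SPOC line (16.7% and 16.6% of all genes) and 5 rose and 3 fell in the GFP line (19.9% and 18.4%), which is near the shares of all genes. Their median log2 fold changes were 0.06 and 0.04, and the difference between the lines passed the test for none of the 18.

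Trp73, the p53 relative p73, showed the largest change of this list. It had 39.5 ± 4.5 CPM in SPOC Dox+Auxin and 27.3 ± 3.0 CPM in SPOC untreated cells (0.54, adjusted p = 9.8e-06), and 45.1 ± 3.7 CPM in GFP Dox+Auxin and 26.98 ± 1.6 CPM in GFP untreated cells (0.74, adjusted p = 2.2e-07; SD, n = 5 and 4 per group). Trp53bp1, a DNA damage adaptor, rose in both lines (0.19 in SPOC, 0.26 in GFP), and Cop1, a ubiquitin ligase for p53, fell in both (−0.15 and −0.26). Mdm4, the partner of MDM2, rose in the SPOC line (0.26, adjusted p = 5e-05) and stood at 0.12 in the GFP line (adjusted p = 0.063). Within the SPOC line Rpl5 (−0.15) and Rpl11 (−0.13), ribosomal proteins that bind MDM2, fell against untreated, and stood at −0.07 and −0.03 in the GFP line. Cdkn2a, the locus of ARF, an inhibitor of MDM2, rose in the GFP line (0.19, adjusted p = 0.022) and stood at 0.05 in the SPOC line, and Rchy1 (0.20) and Kat5 (0.13) also rose in the GFP line, where Prkdc (−0.31) and Atr (−0.26) fell. Atm, Chek1, Chek2, Usp7, Ep300 and Hipk2 did not pass the test against untreated in either line. Against Dox, Hipk2 rose in the SPOC line (0.18) and Chek1 fell in the GFP line (−0.14).

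Relatives of the 9 genes by sequence were 16 in all. Against untreated 4 rose and 2 fell in the SPOC line (16.7% and 16.6% of all genes) and 5 rose and 2 fell in the GFP line (19.9% and 18.4%), with medians of 0.05 and 0.04. Btg1, the relative of Btg2, rose by 0.36 in the SPOC and 0.69 in the GFP line, and was the relative for which this difference between the lines passed the test (−0.34, adjusted p = 0.0105). The imprinted gene Cdkn1c, which encodes the kinase inhibitor p57, rose by 0.42 and 1.02, while Cdkn1a fell. Cdkn1b, the gene of p27, stood at 0.03 and −0.02 against untreated and fell against Dox (−0.30 and −0.29). Of the relatives of Phlda3, the imprinted gene Phlda2 rose (0.68 and 0.66) and Phlda1 fell (−0.46 and −0.71). Ccng2 fell in the SPOC line (−0.76) and stood at 0.01 in the GFP line, Zmat4 rose in the SPOC line (0.57) and stood at −0.15 in the GFP line, and Trp53inp2 (0.20) and Tob2 (0.12) rose and Zmat2 (−0.12) fell in the GFP line. Btg3, Tob1, Zmat1, Zmat5, Bak1 and Bok did not pass the test against untreated in either line, and of these Zmat1 on the X chromosome rose against Dox in both lines (0.76 in SPOC, 0.70 in GFP).

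Other members of the BCL2 family, to which Bax and Bbc3 belong, numbered 10. In each line 5 rose and 3 fell against untreated, where 16.7% and 16.6% of all genes did so in the SPOC and 19.9% and 18.4% in the GFP line, and the medians were 0.14 in the SPOC and 0.09 in the GFP line. The BH3-only genes Bik (1.15 in SPOC, 1.01 in GFP) and Bmf (0.68 and 0.70) rose, and Hrk, another BH3-only gene, fell (−0.34 and −0.41). The survival gene Bcl2 fell by −0.95 in the SPOC line (SE 0.26, groups overlapping) and −0.96 in the GFP line (SE 0.28). Mcl1 fell (−0.20 and −0.26) and Bad rose (0.31 and 0.30). Bcl2l2, a survival gene, rose in both lines against untreated (0.16 in SPOC, 0.21 in GFP) and against Dox (0.16 and 0.34). Bcl2l1, which encodes BCL-XL, fell against Dox in the GFP line (−0.27). Genes for G2 and mitosis that p53 is known to repress through p21 and the DREAM complex, were 15 in all. Against untreated 2 rose and none fell in the SPOC line (16.7% and 16.6% of all genes) and 3 rose and 1 fell in the GFP line (19.9% and 18.4%), with medians of 0.03 and 0.06. Foxm1 (0.13 and 0.12) and Ccna2 (0.07 and 0.08) rose in both lines, and in the GFP line Ccnb2 rose (0.19) and Mybl2 fell (−0.14). Against Dox, Mybl2 fell in both lines (−0.20 in SPOC, −0.33 in GFP) and Ccnb2 rose in both (0.13 and 0.19), while Cdk1 fell (−0.13) and Bub1 rose (0.13) in the GFP line.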

How the data were processed

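Total RNA of 27 libraries was sequenced as paired ends (TruSeq, HiSeq2500), per the labels. The submitters' processing notes list featureCounts, STAR 2.5.3a, DESeq2 1.18.1, Trim Galore 0.4.4, Picard 2.18.2 and genome build mm10, without roles; annotation and strand use were not given in the sources used here. As deposited by the authors, the values used are raw counts per gene for each library. Another 81 columns of per-library values (length-scaled values, and counts by allele whose names disagree with the totals) were not used. Groups came from the labels.

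Of 53801 genes 53620 matched GENCODE M21. Counts were scaled by TMM, filtered with filterByExpr and fitted for all 6 groups in 1 model with edgeR 4.0.16 (robust quasi-likelihood; R 4.3.3); 10 comparisons were made, with Benjamini-Hochberg adjustment over 18363 genes at 0.05. The SE came from the fold change and F statistic. Fold changes are log2. The 9 genes had 675 or more counts in each library, and counting error is part of the replicate spread. Replicates were called biological by the design text, which states 4, while each SPOC group holds 5 libraries. Whether cultures were separate was not tested. The step was checked on simulated counts. Deviations of same-numbered libraries had r over 0.1 in all pairs for GFP Dox+Auxin and untreated alone. They were positive in all pairs also for SPOC Dox and untreated (0.064 to 0.323) and SPOC Dox+Auxin and untreated (0.087 to 0.239). The same held for GFP Dox and untreated (0.019 to 0.146).

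The genes, lists and tests were chosen with earlier results of these data known. Named were the 9 genes, Xist, Spen, tested regulators and paralogs, the 4 called genes of other lists with the largest change per Dox+Auxin comparison, and the 5 genes most like the mean; Rpl5, Eda2r and others named for a comparison outside this rule were chosen after their values were seen. Alternatives were other scalings, DESeq2 1.42.0, no filter, fewer groups, a replicate block, leaving out each library and 3 added after the data were seen.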

Additional observations from a re-analysis of the deposited data

Results flagged for a closer look

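Single libraries stood apart from the rest of their group (by a gap wider than Dixon's 95% limit for the group size) in 7 of 66 groups of values, where chance flags about 1 in 20. In SPOC untreated cells replicate 3 was the high library for Bax (268 CPM), Bbc3 (33.4 CPM) and Cdkn1a (274 CPM), and in SPOC Dox cells replicate 3 was high for Trp53inp1 (338 CPM). Btg2 was low in SPOC Dox+Auxin replicate 5 (41.1 CPM), and Mdm2 was high in GFP untreated replicate 4 (228 CPM). Xist was high in SPOC untreated replicate 2 (178 CPM), a library labelled as untreated.

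The change with Dox+Auxin differed between the lines, by the interaction test of edgeR, for Btg2 against untreated (SPOC minus GFP −0.46, adjusted p = 0.00241) and against Dox (−0.31, adjusted p = 0.0141), for Phlda3 against untreated (−0.38, adjusted p = 0.0106) and for Zmat3 against Dox (−0.24, adjusted p = 0.033). Each construct was in 1 line, so these differences cannot be told apart from differences between the lines.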

How the results depend on the processing

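No fold change of the 9 genes or of the other named genes reversed a call under any alternative run. Of 3330 values for the 9 genes 3222 kept their side of the threshold, 75 lost a call and 33 gained one. Counts of calls moved as follows, and the cause was not tested except where fewer libraries or genes were fitted. With a replicate block, genes called numbered 4145 for SPOC Dox against untreated (2478 without it), 3317 (1495) for the line difference against Dox and 2006 (441) for that against untreated, and p53 targets called were 2 (1) for GFP Dox against untreated and 4 (2) for the line difference against untreated. Deviations of same-numbered libraries correlated from −0.116 to 0.462 over all pairs, and above 0.1 in every pair for GFP Dox+Auxin with untreated alone. They were positive in every pair also for GFP Dox with untreated and for both treated SPOC groups with untreated. A library correlated best with its own number in 26 of 30 cases in the SPOC and 14 of 24 in the GFP line. The line difference against untreated had 810 genes called with DESeq2 and 211 when only the groups compared were fitted. Of the p53 targets, 2 were called for SPOC Dox against untreated with only the groups compared, 3 for SPOC Dox+Auxin against Dox under upper quartile scaling, and 1 for the line difference against Dox both with no filter and without SPOC untreated library 2 and SPOC Dox+Auxin library 2.

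Leaving out 1 library at a time, genes called ran from 1035 (without GFP untreated replicate 2) to 2299 for SPOC against GFP untreated and from 207 (without GFP untreated replicate 4) to 865 (without GFP Dox+Auxin replicate 4) for the line difference against untreated. The p53 targets called ran from 1 to 4 for SPOC Dox against untreated (1 without SPOC untreated replicate 3), 3 to 6 for SPOC Dox+Auxin against Dox (3 without SPOC Dox replicate 1), 1 to 4 for SPOC against GFP untreated and 1 to 3 for the line difference against Dox. Without filter, 63.2% of genes called in the line difference against untreated were higher, against 49.9%. Depth limits Bbc3 most, which had the lowest counts of the 9 genes.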
